A study of Mus musculus with 8 samples.

Results

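The 5 genes described here are Runx1t1, its relatives Cbfa2t2 and Cbfa2t3, and the core binding factor genes Runx1 and Cbfb, taken by Entrez identifier from a table of 21950 genes. All 5 were found in it. They were selected with measured differences between the same libraries in view, so that their levels and fold changes are given as a description, without a test. The libraries came from 8 pools of cells, 4 per group. The d6PGCLCs resemble primordial germ cells (PGCs), the embryonic precursors of eggs and sperm, but were produced in a dish with BMP4, SCF, LIF and EGF from 1 female mouse iPSC line (BVSC-iPSC), which was derived from adult tail tip fibroblasts and carries Blimp1-Venus and Stella-ECFP reporters. They were sorted at day 8 of culture, 6 days after epiblast-like cells had begun to differentiate. The sort followed the paper's culture protocol, which names either both reporters or SSEA1 and integrin β3. The E12.5 PGCs were sorted for SSEA1 and integrin β3 from gonads of female C57BL/6J fetuses at E12.5 (embryonic day). The groups therefore differ in origin, stage and possibly sorting markers, which cannot be told apart here, and the d6PGCLCs stand for a single cell line.

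ETO proteins, also called MTG proteins, are corepressors. They do not read DNA by themselves but are brought to it by transcription factors, and recruit NCoR, SIN3 and histone deacetylase complexes. RUNX1T1 (ETO) is best known from the AML1-ETO fusion of leukemia, in which the DNA-binding part of RUNX1 is joined to it. CBFA2T2 (MTGR1) works with PRDM14 and OCT4 in pluripotent and germ cells, CBFA2T3 (MTG16) acts mainly in blood progenitors, and CBFB is the subunit that stabilizes RUNX proteins on DNA. In the fetal ovary RUNX1 is known from the supporting cells rather than from germ cells.

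In mouse genome build GRCm38, Runx1t1 (Entrez 12395) lies at chr4:13742628-13895056 on the plus strand, Cbfa2t2 (12396) at chr2:154436098-154539356 on the plus strand, and Cbfa2t3 (12398) at chr8:122625136-122699332 on the minus strand. Runx1 (12394) lies at chr16:92601466-92826074 on the minus strand and Cbfb (12400) at chr8:105170674-105217989 on the plus strand. The exonic lengths over which reads were counted were 7997 bp for Runx1t1, 6520 bp for Cbfa2t2, 8031 bp for Cbfa2t3, 3935 bp for Runx1 and 2965 bp for Cbfb. The 3 ETO genes are thus long transcripts, since 97.5, 94.9 and 97.6% of the genes in the table were shorter.

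The ETO genes resemble each other in their coding sequence, which matters for reads that must map to a single place. The aligned coding sequences of GENCODE M21 transcripts were identical at 65.7% of bases between Runx1t1 and Cbfa2t2, at 70% between Runx1t1 and Cbfa2t3, and at 63.4% between Cbfa2t2 and Cbfa2t3. The best conserved stretch of 90 coding bases lies in the region that encodes the C-terminal MYND zinc finger, through which ETO proteins contact NCoR. It is shown because it is where reads of the 3 genes would be hardest to separate, with capitals for the 70 bases identical in all 3 genes:
Runx1t1, chr4:13889615-13889704, plus strand: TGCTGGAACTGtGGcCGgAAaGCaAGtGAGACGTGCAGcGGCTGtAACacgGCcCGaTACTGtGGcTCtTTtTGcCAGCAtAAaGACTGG
Cbfa2t2, chr2:154534887-154534976, plus strand: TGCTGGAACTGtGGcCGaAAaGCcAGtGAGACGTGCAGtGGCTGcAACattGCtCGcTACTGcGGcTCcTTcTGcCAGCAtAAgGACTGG
Cbfa2t3, chr8:122630884-122630973, minus strand: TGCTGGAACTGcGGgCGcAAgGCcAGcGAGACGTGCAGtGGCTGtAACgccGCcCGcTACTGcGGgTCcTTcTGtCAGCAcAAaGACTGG
Each stretch lies within 1 exon of its gene. The longest identical run between any pair of the 3 coding sequences was 29 bases, and no word of 100 bases, the length of a read, occurred in the transcripts of more than 1 of the 5 genes. None of the 7953 words of Runx1t1 transcripts and none of the 3768 words of Cbfb transcripts occurred in a transcript of another gene. Only GENCODE M21 transcripts were searched, not the rest of the genome, and the exons counted may differ from theirs. The counted length of Runx1t1, 7997 bp, matched none of its transcripts there, the longest of which has 6090 bases. For Cbfa2t2, 473 of 8800 words (5.38%) also occurred in the pseudogene Cbfa2t2-ps1. For Cbfa2t3, 196 of 8469 words (2.31%) occurred in Gm10612, which overlaps its exons by 295 bp on the opposite strand, and for Runx1, 7 of 12215 words (0.0573%) occurred in Gm26626 in the same way. Whether the counting used strand is not given in the sources used here, so that the values of Cbfa2t3 and Runx1 may hold reads of these antisense genes.

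Between 7991437 and 12024841 reads were counted per library, and 4940 genes were at 0 throughout. The 10 germ cell markers had a summed level of 3743 to 4333 CPM (counts scaled to a common library size with TMM factors) in d6PGCLCs and 4472 to 5044 CPM in E12.5 PGCs. At an adjusted p of at most 0.05 (edgeR, all genes), 4 of these markers were higher in d6PGCLCs, 4 were lower and 2 did not pass, where 16.1% of all genes were higher and 15.4% lower. E12.5 PGC and d6PGCLC means were 760 and 35.5 CPM for Ddx4, 1262 and 37.7 CPM for Dazl, and 96.5 and 7.02 CPM for Mael, which mark PGCs that have reached the gonad. The sum of 11 markers of gonadal supporting cells ran from 3.48 to 9.19 CPM in d6PGCLCs and from 16 to 25.8 CPM in E12.5 PGCs. Of 8 blood markers, 1 was higher and 2 were lower in d6PGCLCs at this threshold. Csf1r had 1.08 to 3.06 CPM in d6PGCLCs and 0 in every PGC library, Tyrobp was at most 1.9 CPM, Hbb-y reached 26 CPM in E12.5 PGC replicate 2, and Ptprc and Spi1 were at most 0.128 CPM. The heat shock genes Hspa1a and Hspa1b separated the groups, with 0.305 to 0.747 and 1.45 to 1.79 CPM in d6PGCLCs against 4.42 to 144 and 6.41 to 181 CPM in E12.5 PGCs, where replicate 2 was the highest. E12.5 PGC replicate 4, although labelled female, had 53 counts of Y-linked genes, against 0 in every other library.

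Runx1t1 was much lower in d6PGCLCs than in E12.5 PGCs. The d6PGCLC libraries held 82, 106, 140 and 119 counts, or 10.5, 10.8, 11.6 and 14.4 CPM. The E12.5 PGC libraries held 1303, 1207, 1612 and 1654 counts, or 163, 127, 149 and 149 CPM. The lowest PGC library was far above the highest d6PGCLC library, and the libraries of each group lay close together. The means were 11.8 ± 1.8 CPM and 147 ± 14.7 CPM (SD, n = 4 each), a log2 fold change of -3.64 with a standard error of 0.12, or 12.4-fold lower in d6PGCLCs. Without E12.5 PGC replicate 2 the log2 fold change was -3.70, and without E12.5 PGC replicate 4 it was -3.63. Ordered by log2 fold change from the lowest, it ranked 14 of the 8128 genes whose mean count was 100 or more. In these bulk samples, fewer cells with Runx1t1 RNA and less RNA per cell cannot be told apart.

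Some marker genes moved in the same direction as Runx1t1 and others did not. At an adjusted p of at most 0.05, 4 of the 10 germ cell markers were lower in d6PGCLCs and 4 were higher. The higher ones, Prdm1, Dppa3, Pou5f1 and Tfap2c, had log2 fold changes of 0.65 to 1.21. The late germ cell markers Ddx4, Dazl and Mael had log2 fold changes of -4.42, -5.07 and -3.80, against -3.64 for Runx1t1, and Hspa1a and Hspa1b were also lower in every d6PGCLC library. Of the 11 supporting cell markers analysed, 8 were lower in d6PGCLCs at an adjusted p of at most 0.05. Foxl2 was not analysed here. The largest part of their sum in E12.5 PGCs was Irx3, at 9.03 to 13.5 CPM. Kitl was there at most 3.37 CPM, Fst at most 2.63 CPM and Wt1 at most 1.68 CPM. Wnt4 and Rspo1 were at most 1.62 CPM, Nr5a1 at most 0.947 CPM and Amhr2 at most 0.277 CPM. Of 9 markers of epiblast-like and mesoderm cells, 6 were lower and 1 was higher in d6PGCLCs at the same threshold, with overlapping sums of 21.3 to 37.3 CPM in d6PGCLCs and 31.8 to 35.2 CPM in E12.5 PGCs. Hand1 had 0.548 CPM against 8.26 CPM in PGCs (log2 fold change -3.92), and Dnmt3b, the higher one, 20.4 against 10.6 CPM. Of 6 interstitial cell markers, 1 was higher and 2 were lower at this threshold, with sums of 3.57 to 7.03 CPM in d6PGCLCs and 1.75 to 2.95 CPM in E12.5 PGCs. The part of these cell types, of heat shock genes and of germ cell stage in the Runx1t1 result was not tested.

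Cbfa2t2 was well counted in both groups and somewhat higher in d6PGCLCs. It had 3077, 3115, 4253 and 2980 counts in d6PGCLCs, which is 393, 317, 353 and 361 CPM. In E12.5 PGCs it had 2567, 2525, 3034 and 3173 counts, which is 320, 266, 280 and 286 CPM. Most d6PGCLC libraries were above the PGC libraries, but the groups overlapped, since d6PGCLC replicate 2 was below E12.5 PGC replicate 1. The means were 356 ± 31.1 and 288 ± 23.2 CPM (SD, n = 4 each), a log2 fold change of 0.31 with a standard error of 0.09, or 1.24-fold higher in d6PGCLCs. The difference was therefore small, and opposite in direction to that of Runx1t1.

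Cbfa2t3 was barely counted. The d6PGCLC libraries held 15, 8, 20 and 16 counts and the E12.5 PGC libraries 23, 22, 16 and 17 counts. These are 0.814 to 1.94 CPM and 1.48 to 2.87 CPM, and the ranges overlapped. The means were 1.58 ± 0.527 and 2.05 ± 0.668 CPM (SD, n = 4 each), with a log2 fold change of -0.36 and a standard error of 0.36. The value rested on single libraries, and came to -0.15 without d6PGCLC replicate 2 and -0.17 without E12.5 PGC replicate 1. At this depth no difference was detectable.

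Cbfb, the beta subunit, was counted well in both groups. It had 765, 901, 1051 and 743 counts in d6PGCLCs, or 97.6, 91.7, 87.2 and 90.1 CPM. It had 998, 958, 1177 and 1368 counts in E12.5 PGCs, or 125, 101, 109 and 123 CPM. All PGC libraries were above all d6PGCLC libraries, by a narrow margin. The means were 91.7 ± 4.4 and 114 ± 11.6 CPM (SD, n = 4 each), a log2 fold change of -0.32 with a standard error of 0.10, or 1.25-fold lower in d6PGCLCs.

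Runx1 was at the limit of detection. No count was found in any d6PGCLC library, and the E12.5 PGC libraries held 0, 0, 2 and 2 counts. A count of 0 allows up to 3 counts, which is 0.249 to 0.372 CPM in the d6PGCLC libraries, and such limits cover counting error only. Both groups were at or under this limit, so that no fold change is given. The other RUNX genes, which encode alternative alpha subunits, were hardly counted either. Runx2 had no count in any library and Runx3 at most 1. Together the 3 RUNX genes had 2 of 38380304 counts in d6PGCLCs and 6 of 38998916 counts in E12.5 PGCs, against 3460 and 4501 counts of Cbfb. The beta subunit was thus counted in every library in which its alpha subunits were at or near 0. The authors counted 1 transcript isoform per gene, chosen at random, and the counted length of 3935 bp of Runx1 matched none of its 7 GENCODE M21 transcripts, the nearest of which has 3815 bases against 5861 bases for the longest. Reads of Runx1 isoforms outside the counted exons would not be in the table, and the counted lengths of Runx2 (708 bp) and Runx3 (1133 bp) were shorter still.

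**Figure D1:**
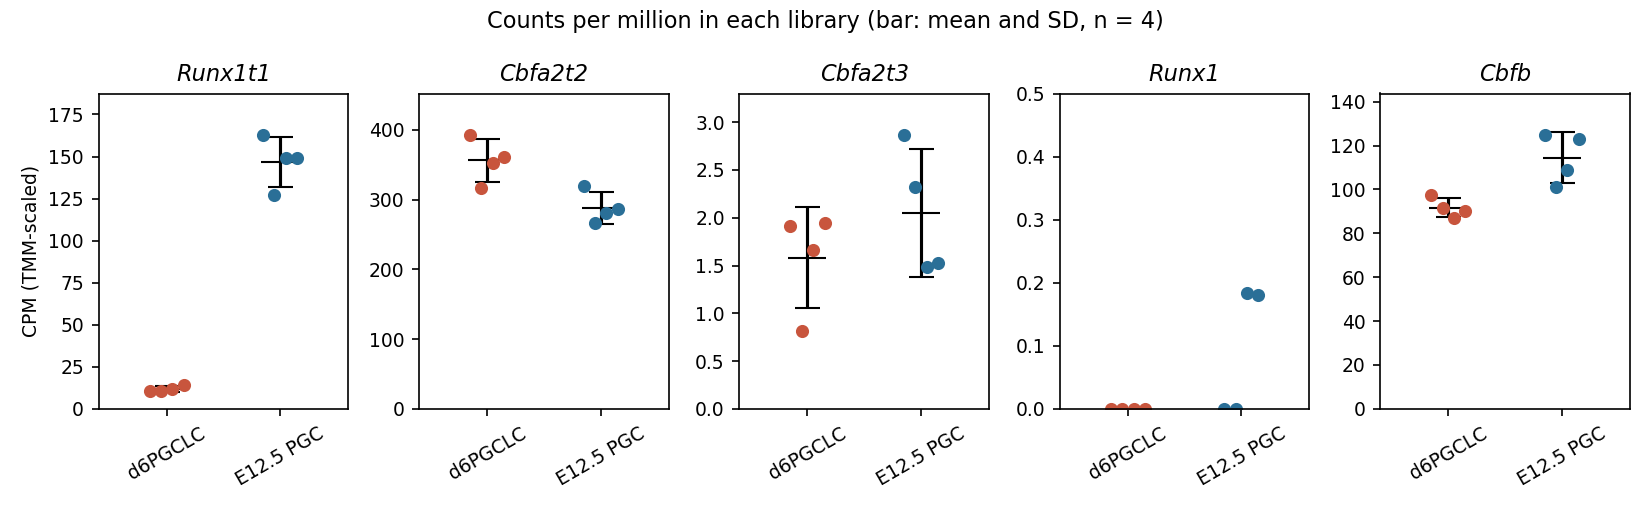
CPM (vertical axes, each starting at 0) of the 5 genes in the 4 d6PGCLC and 4 E12.5 PGC libraries, 1 point per library, with bars for the mean and SD except for Runx1, where both groups are at the limit of detection. Runx1t1 sits between 10.5 and 14.4 CPM in d6PGCLCs and between 127 and 163 CPM in E12.5 PGCs, while Cbfa2t2 and Cbfb differ little between the groups.

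Of the 5 genes, 3 passed an adjusted p of at most 0.05 in the fit over all genes. These were Runx1t1 and Cbfb, which were lower in d6PGCLCs, and Cbfa2t2, which was higher. Over all 21950 genes, 15.4% were lower and 16.1% were higher at this threshold, and 53.6% of the 11487 genes with a mean of at least 1 CPM passed it in either direction. Groups did not overlap for Runx1t1 and Cbfb among the 4 members with at least 1 CPM, and for 51.1% of the genes with at least 1 CPM. Runx1t1 alone also had a log2 fold change of at most -2, as did 3.37% of all genes. At the stricter adjusted p of at most 0.01, Runx1t1 passed, while Cbfa2t2 and Cbfb did not. Of all genes, 2831 were higher and 2459 lower at 0.01. Because the members were selected on this contrast, nothing is read from these counts.

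**Figure D2:**
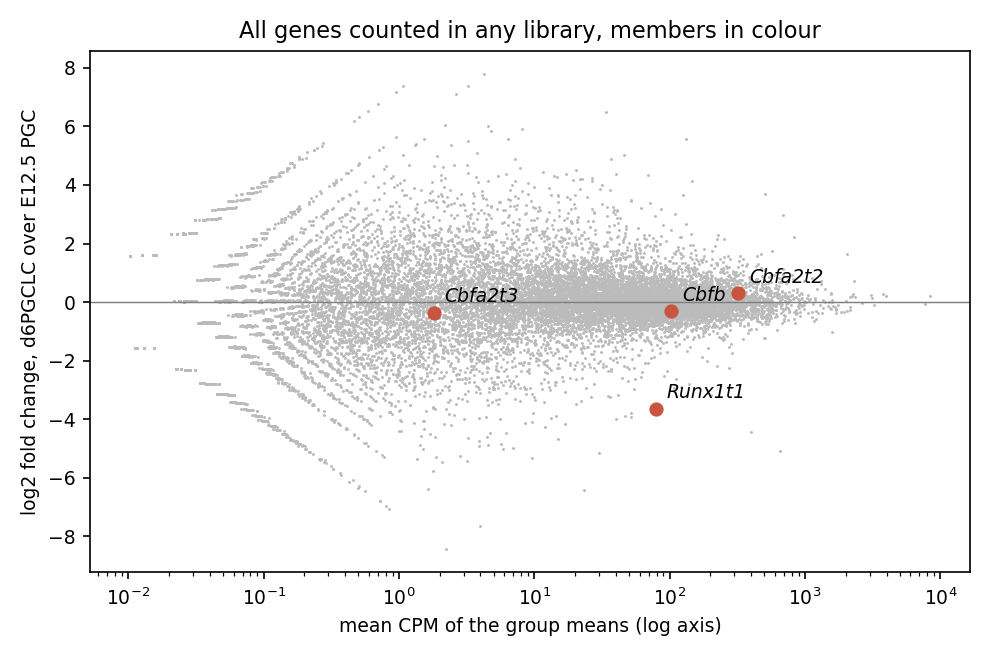
Log2 fold change of d6PGCLCs over E12.5 PGCs (vertical axis) against the mean CPM of both groups (horizontal, log axis) for all genes counted in any library, 1 grey point per gene, with 4 members in colour and Runx1 left out because both groups are at the limit of detection. Runx1t1, at -3.64, lies at the lower edge of the well-counted genes, whereas Cbfa2t2 and Cbfb lie near 0.

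To compare genes with each other, levels were divided by the counted exonic length (RPKM). On this scale the order in d6PGCLCs was Cbfa2t2 with 54.6 ± 4.77 RPKM, Cbfb with 30.9 ± 1.49 RPKM, Runx1t1 with 1.48 ± 0.225 RPKM, Cbfa2t3 with 0.197 RPKM and Runx1 with 0 (SD, n = 4). In E12.5 PGCs the order was the same, with 44.2 ± 3.55 RPKM for Cbfa2t2, 38.6 ± 3.91 RPKM for Cbfb, 18.4 ± 1.84 RPKM for Runx1t1, 0.255 RPKM for Cbfa2t3 and 0.0232 RPKM for Runx1. Cbfa2t2 and Cbfb overlapped in E12.5 PGCs, where the lowest Cbfa2t2 library (40.8 RPKM) was below the highest Cbfb library (42 RPKM). Within each single library, Cbfa2t2 was above Cbfb. The ranges of all other neighbours did not overlap within a group, although Cbfa2t3 and Runx1 were both near 0. Among all genes, 55.2% had a lower mean RPKM than Runx1t1 in d6PGCLCs and 80.3% in E12.5 PGCs. Cbfa2t2 stood above 92.5 and 90.7% of genes and Cbfb above 86.3 and 89.2%.

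The summed level of the 3 ETO genes was similar in both groups, but its makeup was not. The sum was 56.3 ± 4.84 RPKM in d6PGCLCs, with a range of 50.1 to 61.8 RPKM, and 62.8 ± 5.32 RPKM in E12.5 PGCs, with a range of 56.9 to 69.8 RPKM, so that the groups overlapped. Runx1t1 made up 2.12, 2.69, 2.6 and 3.14% of the sum in the d6PGCLC libraries and 29.1, 27.9, 30.1 and 29.7% in the E12.5 PGC libraries. Its share was thus narrow within each group and far apart between them. Cbfa2t2 made up 97 ± 0.436% in d6PGCLCs and 70.4 ± 0.876% in E12.5 PGCs, and Cbfa2t3 0.345 and 0.405%. For each unit of Runx1t1 there were 37.5 ± 6.35 units of Cbfa2t2 in d6PGCLCs and 2.41 ± 0.112 in E12.5 PGCs (ratio of RPKM, SD, n = 4). These shares use the counted lengths in the table, which matched no GENCODE M21 transcript of the ETO genes, with a difference of 1907 bases to the nearest transcript for Runx1t1, 440 for Cbfa2t2 and 386 for Cbfa2t3.

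**Figure D3:**
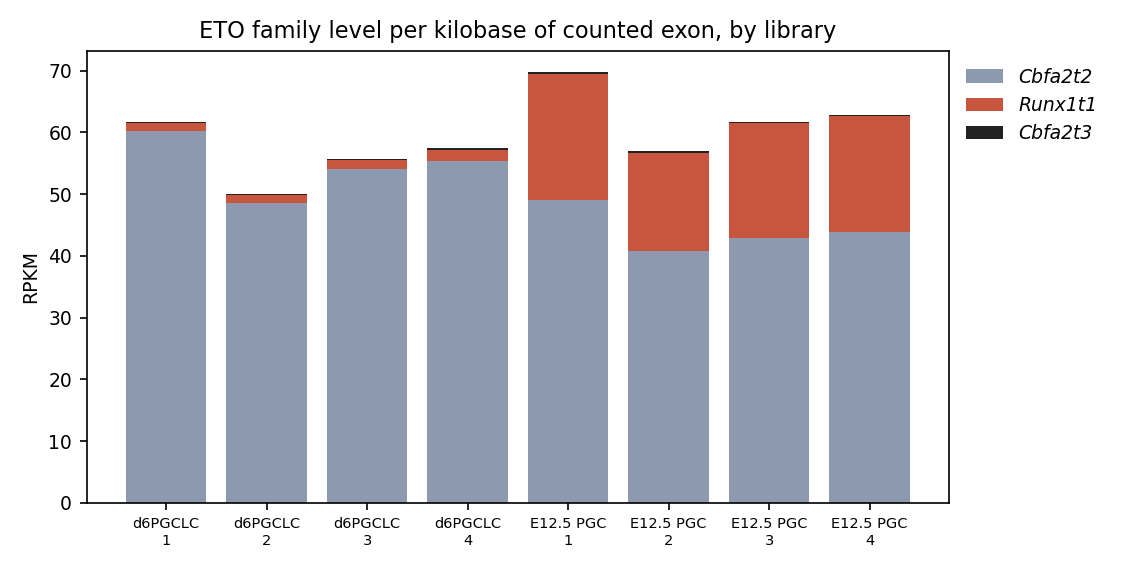
Stacked RPKM (vertical axis, from 0) of Cbfa2t2, Runx1t1 and Cbfa2t3 in each of the 8 libraries, 1 bar per library. The bars are of similar height in both groups, but Runx1t1 fills 2.12 to 3.14% of a d6PGCLC bar and 27.9 to 30.1% of an E12.5 PGC bar.

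Promoter sequences in RefSeq (GRCm38.p6, 250 bases before to 50 bases after a transcript start) were found for Cbfa2t2, Cbfa2t3, Runx1 and Cbfb, with 6 starts in all. The set of promoters used here held none for Runx1t1, although GENCODE M21 has 6 transcripts of that gene. The RUNX binding core TGTGGT, searched on both strands, occurred in 16.8% of 32851 mouse promoters of this length, and its variant TGCGGT in 6.45%. Among the 6 promoters found, the core occurred only in the distal promoter of Runx1, which held 2 copies, and the variant only once, in the upstream promoter of Cbfa2t3. The 2 Runx1 promoters are shown, since the gene had almost no counts and they differ widely in base composition. They are written 5′ to 3′ on the strand of the gene, with capitals for matches of the core, which here read as its reverse complement:
Runx1 distal, chr16:92826025-92826324, minus strand: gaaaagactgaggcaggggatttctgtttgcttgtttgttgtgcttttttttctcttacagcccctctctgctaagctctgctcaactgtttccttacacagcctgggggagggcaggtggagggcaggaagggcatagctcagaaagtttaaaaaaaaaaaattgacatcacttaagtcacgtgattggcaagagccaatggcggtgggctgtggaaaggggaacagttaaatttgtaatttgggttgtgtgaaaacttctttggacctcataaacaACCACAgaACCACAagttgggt
Runx1 proximal, chr16:92697280-92697579, minus strand: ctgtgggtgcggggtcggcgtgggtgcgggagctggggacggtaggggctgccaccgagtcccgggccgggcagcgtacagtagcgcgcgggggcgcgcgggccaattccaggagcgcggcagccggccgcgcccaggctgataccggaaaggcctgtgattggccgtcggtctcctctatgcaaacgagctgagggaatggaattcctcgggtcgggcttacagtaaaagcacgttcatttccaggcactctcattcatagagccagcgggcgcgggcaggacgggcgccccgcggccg
The distal Runx1 promoter had a GC content of 45% and an observed to expected CpG ratio of 0.137, against medians of 52.7% and 0.384 over all promoters. The proximal Runx1 promoter had a ratio of 1.01, close to the 1.16 of Cbfa2t2, the 0.987 of Cbfb and the 1.09 of the downstream Cbfa2t3 promoter. The upstream Cbfa2t3 promoter had a ratio of 0.33. The CpG-rich promoters thus belong both to the well-counted genes Cbfa2t2 and Cbfb and to Runx1 and Cbfa2t3, which were near the limit of detection. A match describes letters in a window, and no binding was measured here.

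Genes whose proteins work with the members, and relatives or companions of either, were examined in 6 lists holding 51 genes of the table. At an adjusted p of at most 0.05 (edgeR, all genes), 9 were higher in d6PGCLCs, 17 were lower and 25 did not pass. The lists were chosen with earlier results of these data known. Their counts, medians and adjusted p-values, here and below, are therefore given as a description. The median log2 fold change of the 49 above the limit of detection was -0.21, against -0.01 over all 14216 such genes, of which 24.7% were higher and 23.7% lower.

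The list of PRDM14 and OCT4, with which CBFA2T2 works, and their germ cell companions BLIMP1 and TFAP2C was higher in d6PGCLCs for 4 of 4 genes, with a median log2 fold change of 0.83. Prdm14, a regulator of germ cell specification that binds CBFA2T2, was at 219 ± 28.6 against 115 ± 8.86 CPM, a log2 fold change of 0.93 (SE 0.10, adjusted p = 2.38e-07, n = 4 each). Pou5f1, which encodes OCT4, was at 1632 ± 157 against 980 ± 107 CPM, a log2 fold change of 0.74 (adjusted p = 2.21e-06). Prdm1, which encodes the repressor BLIMP1, had a log2 fold change of 1.21 (adjusted p = 2.11e-09), and Tfap2c, which acts beside it, 0.65 (adjusted p = 3.93e-06). Pou5f1, Prdm1 and Tfap2c are also among the germ cell markers counted as higher above, so that the 2 counts share genes. For each of the 4 genes, every d6PGCLC library was above every PGC library. The groups did not overlap, in either direction, for 51.1% of all genes with at least 1 CPM. The d6PGCLCs may have been sorted by the Blimp1 and Stella reporters, and the PGCs were not. The levels of Prdm1, and of Dppa3 (Stella), a germ cell marker that was also higher, may then not be independent of the sort. This was not tested. Cbfa2t2 and these 4 genes had higher means in d6PGCLCs, by 1.24-fold for Cbfa2t2 and by 1.57-fold to 2.31-fold for the others. The Cbfa2t2 groups overlapped, bulk pools do not show whether the same cells were involved, and a link between these genes was not tested.

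Of 10 subunits of the corepressor complexes that ETO proteins recruit, 0 were higher, 3 were lower and 7 did not pass. Hdac3 was not analysed here. The histone deacetylase genes Hdac1 and Hdac2 were lower in d6PGCLCs, with 122 ± 9.66 against 188 ± 20.3 CPM (log2 fold change -0.62, adjusted p = 3.02e-05) and 338 ± 39 against 483 ± 27.2 CPM (-0.51, adjusted p = 0.00013). Tbl1x, a subunit of NCoR complexes, was at -0.30 with an adjusted p of 0.0458, and did not pass in 7 of 18 other settings, where it reached 0.133. The scaffold genes gave log2 fold changes of 0.18 for Ncor1 (adjusted p = 0.389) and -0.07 for Sin3a (0.786), with standard errors of 0.14 and 0.11. The median of the list was -0.01.

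Among the 14 genes of the E-protein and LDB1 complexes, which hold ETO proteins in blood cells, 1 was higher, 6 were lower and 7 did not pass, with a median log2 fold change of -0.94. That median includes genes near the limit of detection, such as Tal1, Lyl1, Gata1 and Ldb2, with at most 0.842 CPM in any library. These genes are named, as are Lmo2 and Ssbp4 below, after their values were seen. Tcf12, which encodes the E protein HEB, was at 96.9 ± 3.21 CPM in d6PGCLCs against 172 ± 14.1 CPM in PGCs (log2 fold change -0.83, SE 0.09, adjusted p = 2.93e-07). Tcf3, which encodes the E protein E2A, had 670 against 598 CPM (0.16, adjusted p = 0.131). Ssbp2, which protects LDB1 from degradation, was at 7.74 ± 1.66 against 37.4 ± 3.33 CPM, a log2 fold change of -2.28 (SE 0.16, adjusted p = 4.34e-10). Gata2, a transcription factor of blood progenitors that is also expressed in PGCs, was at 114 ± 17.1 against 236 ± 47.4 CPM, a log2 fold change of -1.05 (adjusted p = 1.14e-06). Lmo2, which bridges these factors to LDB1, had 3 counts or fewer in each d6PGCLC library and 34 to 54 counts in each PGC library. Ssbp4 was the gene that was higher, with 211 against 154 CPM (log2 fold change 0.45, adjusted p = 0.000668).

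The 7 genes of the zinc finger list encode repressors reported to bind ETO proteins, and near relatives of them. They moved in both directions, with 2 higher, 2 lower and 3 that did not pass. Among the better counted, Zbtb38 was at 20.4 against 50.4 CPM (log2 fold change -1.31, adjusted p = 2.67e-07) and Zbtb33, which encodes the methyl-DNA binding protein KAISO, at 30.5 against 53.4 CPM (-0.81, adjusted p = 3.27e-05). The list's median of 0.85 has the opposite sign, and the 5 other genes of the list were at most 4.98 CPM in any library. The 2 higher genes, named after their values were seen, were Zbtb4 and Gfi1b. Zbtb4 was at 4.26 against 1.22 CPM (1.78, adjusted p = 4.92e-05) and Gfi1b at 1.13 against 0.403 CPM (1.45, adjusted p = 0.018).

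Of 12 RUNX cofactors, 2 were higher, 5 were lower and 5 did not pass, with a median of -0.32. Tle3, which encodes a Groucho-type corepressor, was the exception in size. Its mean of 137 ± 27.6 CPM in d6PGCLCs stood against 17.9 ± 3.44 CPM in E12.5 PGCs, a log2 fold change of 2.94 (SE 0.15, adjusted p = 4.27e-12), and the groups did not overlap. Hipk2, which encodes a kinase, was at -0.99 (adjusted p = 6.33e-05), and Crebbp, which encodes the acetyltransferase CBP, at -0.61 (adjusted p = 0.00155). The Crebbp groups overlapped, with 41.9 CPM in d6PGCLC replicate 1 and 40.3 CPM in E12.5 PGC replicate 2. In the last list, TAF4 and TAF4B share the TAFH domain of ETO proteins. Taf4 was at 61.9 and 62.1 CPM (log2 fold change 0.00, SE 0.10, adjusted p = 1). Taf4b, which is needed for the ovarian germ line, was lower in d6PGCLCs, at 102 ± 7.9 against 168 ± 24.9 CPM (-0.72, adjusted p = 1.52e-05). With Runx2 and Runx3, this list of 4 had 0 higher, 1 lower and 3 that did not pass, and a median of -0.36 over the 2 genes above the limit of detection.

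**Figure D4:**
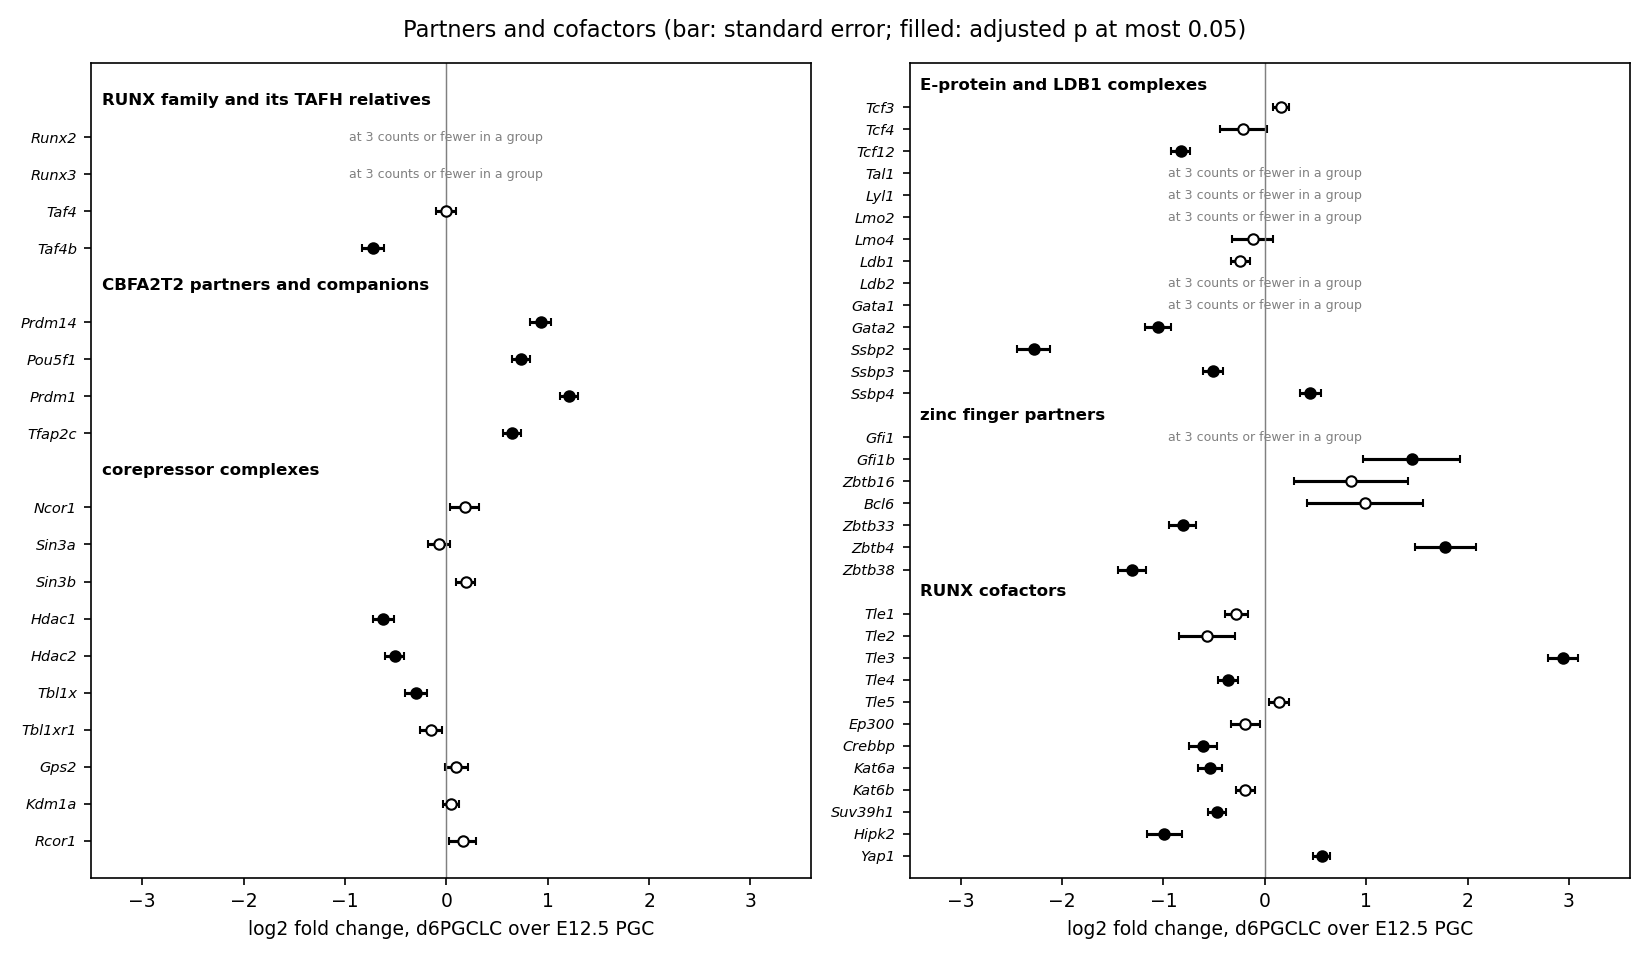
Log2 fold change of d6PGCLCs over E12.5 PGCs (horizontal axes) with its standard error for the 51 partner, cofactor and related genes in 6 lists. Points are filled where the adjusted p is at most 0.05. Grey text stands in place of a point for genes at 3 counts or fewer per library in at least 1 group, Lmo2 among them. The 4 genes listed with CBFA2T2 lie to the right of 0, and of the genes drawn as points Ssbp2 is the lowest at -2.28 and Tle3 the highest at 2.94.

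The genes most like Runx1t1 over the 8 libraries, by Pearson r in log2(CPM + 0.5) among the 8127 other genes whose mean count was 100 or more, were Nat8l (r = 0.998), Supt3 (0.997) and Cep41 (0.9969). The d6PGCLC and PGC means were 9.49 and 41.3 CPM for Nat8l, 19.3 and 32.3 CPM for Supt3, and 32.8 and 57.4 CPM for Cep41. Their log2 fold changes, -2.12, -0.75 and -0.81, were smaller than that of Runx1t1, since the correlation measures the pattern and not its size. With 2 groups of 4 libraries it mostly reflects the difference between groups, so that it is given as a description.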

How the data were processed

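RNA from 4 d6PGCLC and 4 E12.5 PGC pools, prepared in independent experiments, was sequenced as stranded poly(A) libraries of single-end reads. The authors deposited 1 table with raw counts per gene, made from reads that mapped to a single place, and an exonic length (another unit, in bp). They aligned reads with STAR to GRCm38 (mm10) with ERCC sequences, counted them with QuasR on the exons of 1 UCSC isoform per gene chosen at random, and removed genes with overlapping promoters at random. The use of strand is not given in the sources used here. Unique mapping lowers the counts of sequences with near-identical copies, and the isoform choice affects which reads count.

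Entrez identifiers were matched to RefSeq symbols (21907 of 21950). Every count column carried a sample name, and no library was left out. No replicate pair agreed within sampling noise (chi-square divided by its degrees of freedom, 3.35 to 22.1 over 12 pairs). Counts were scaled by TMM and fitted with edgeR 4.0.16 in R 4.3.3 (glmQLFit, glmQLFTest, prior count 0.125, cell type as the only term), with Benjamini-Hochberg adjustment over 21950 genes. Genes passed at an adjusted p of at most 0.05, or additionally with a log2 fold change of 2 or more in size. P-values measure the spread between these pools. The limit of detection was set at 3 counts in each library of a group. Promoters came from RefSeq and transcripts from GENCODE M21. Coding sequences were aligned with mafft 7.526.

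The members and gene lists were chosen with earlier results of these data known. Genes not reported here were left out of the lists. Genes named are the members, Runx2, Runx3, Taf4, Taf4b, Prdm14, Pou5f1, Prdm1, Tfap2c, Ncor1, Sin3a, Hdac3, Tcf3 and Tcf12, the 3 genes with the largest change among those that passed with a mean of at least 50 counts in each other list, defining markers of other cell types, and the 3 genes most like Runx1t1. Hspa1a and Hspa1b are in none of the lists and were named outside this rule. Marker lists covered germ cells, gonadal supporting and interstitial cells, endothelium (32.9 to 49.9 summed CPM in d6PGCLCs, 27.7 to 45.2 in PGCs), blood (3.24 to 7.02, and 2.03 to 30.9), and epiblast-like and mesoderm cells (21.3 to 37.3, and 31.8 to 35.2). The fit was repeated with DESeq2 1.42.0, the likelihood ratio test, other scalings (DESeq2 size factors, upper quartile, library size), a replicate block, a prior count of 2, low-count filters (filterByExpr, or over 1 CPM in 3 or more libraries), an adjusted p of at most 0.01, a loess offset on exonic length (span 0.5) and leaving out each library in turn.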

Additional observations from a re-analysis of the deposited data

Results flagged for a closer look

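Each member and named gene with enough counts was examined for a library that stood apart from the other 3 of its group (Dixon's criterion). Of 54 sets of 4 libraries, 2 did so, where chance gives about 2.7. Tcf12 was at 102 CPM in d6PGCLC replicate 4, against 95.2 to 95.4 CPM in the other d6PGCLC libraries. Zbtb33 was at 24 CPM in d6PGCLC replicate 2, against 32.3 to 33.1 CPM in the others. No set of a member met this criterion.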

How the results depend on the processing

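Runx1t1, Cbfa2t2, Cbfa2t3 and Cbfb kept the direction of their log2 fold change in all 18 alternatives that gave one. Leaving out each library in turn gave -3.74 to -3.58 for Runx1t1, 0.26 to 0.36 for Cbfa2t2, -0.49 to -0.15 for Cbfa2t3 and -0.37 to -0.28 for Cbfb, and the 10 other alternatives gave -3.68 to -3.57, 0.27 to 0.33, -0.40 to -0.31 and -0.40 to -0.31. No alternative gives a fold change for Runx1, because both groups are at the limit of detection. Of all genes, 712 were higher and 740 lower with the fold threshold. These counts fell to 464 and 383 with filterByExpr and to 450 and 382 with a prior count of 2, and the filter on CPM left 435 lower. Without the fold threshold, a prior count of 2 left 3532 genes higher and 3387 lower, the same as in the main fit. The cause of the lower counts was not tested. Tcf3 passed with DESeq2 (adjusted p = 0.0416). Under the other scalings the median log2 fold change of genes with at least 1 CPM was -0.03 to 0.00, against 0.01. Replicate numbers were not taken as a pairing, since same-numbered libraries had correlations of 0.441, 0.217, -0.106 and 0.0996 over 8128 genes. With a replicate block, Runx1t1 was at -3.63, and 3708 genes were higher and 3562 lower, against 3532 and 3387. Cbfa2t3 and Runx1 had at most 23 counts in any library, and the parts of depth and of the isoform counted in this were not tested.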
